A study of Hordeum vulgare with 6 samples.

Results

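The regions described here are stretches of barley chromatin carrying H3K27me3 that were narrower than 80 kb and lay near the beginning of a chromosome, where the barley sequence by convention starts with the short arm. They were chosen from 3 lists of peaks. Peaks that overlapped or touched were merged into regions, and a region was kept if each of the 3 lists had a peak in it, if it lay on one of the chromosomes 1H to 7H, if its merged width was under 80 kb and if its midpoint lay below 10% of the chromosome length from coordinate 0. This rule was met by 561 of all 6846 merged regions (8.19%), and by 561 of the 2791 narrow regions with a peak in every list on the 7 chromosomes (20.1%). The lists carry no arm labels, so the short arm was not checked against the data and the regions are defined by their coordinates alone.

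All samples came from endosperm at 16 days after pollination of the barley (Hordeum vulgare subsp. vulgare) cultivar Morex, a six-rowed spring type, with no treatment and no second genotype. The series holds 3 H3K27me3 ChIP libraries and 3 input libraries, and 1 peak list per ChIP library was analysed. Endosperm was dissected by hand and cross-linked with formaldehyde. Sheared chromatin was pooled before precipitation. Nothing in the labels ties the replicates to different plants or harvests, so p-values and SDs measure only the spread between these libraries, which may be technical.

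H3K27me3 is a trimethyl mark on histone H3 that Polycomb repressive complex 2 deposits and that is known for keeping genes silent during development. In plants the mark usually lies over gene-sized stretches, and neighbouring stretches can join into domains. The endosperm feeds the cereal embryo from its starch and protein stores, and in this tissue Polycomb activity is known to bear on imprinting and on the timing of development. The outer parts of barley chromosome arms are gene-rich and recombine often, while the large regions around the centromeres are repeat-rich and recombine little.

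The lists held 4273, 5593 and 5815 peaks in replicates 1, 2 and 3. Each peak carries a fold, which is the enrichment of the ChIP signal over the background of the authors' peak caller, and a −log10 q, which states its significance. Both are the authors' values. A region's fold in a replicate is that of the strongest peak the replicate has there. The lists give no read counts, so the depth behind each value is unknown. Because the rule required a called peak in every list, fold and −log10 q are described below, and no member's enrichment was tested.

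The regions were most frequent close to the chromosome end and thinned out inwards. The 10% windows of the 7 chromosomes added up to 420 Mb (1.34 regions per Mb). The first 1% of the chromosome length held 100 regions, the second 92 and the third 78. Each of the next 3 bins held between 52 and 53 regions, and the last 2 held 23 and 28. In regions per Mb this was 2.38 in the first 1% and 0.667 in the last. Every 1% bin had a region on each of the 7 chromosomes. Domains of 80 kb or more in the same windows numbered 146 and also thinned out, from 23 and 32 in the first 2 bins to 4 and 3 in the last 2.

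**Figure D1:**
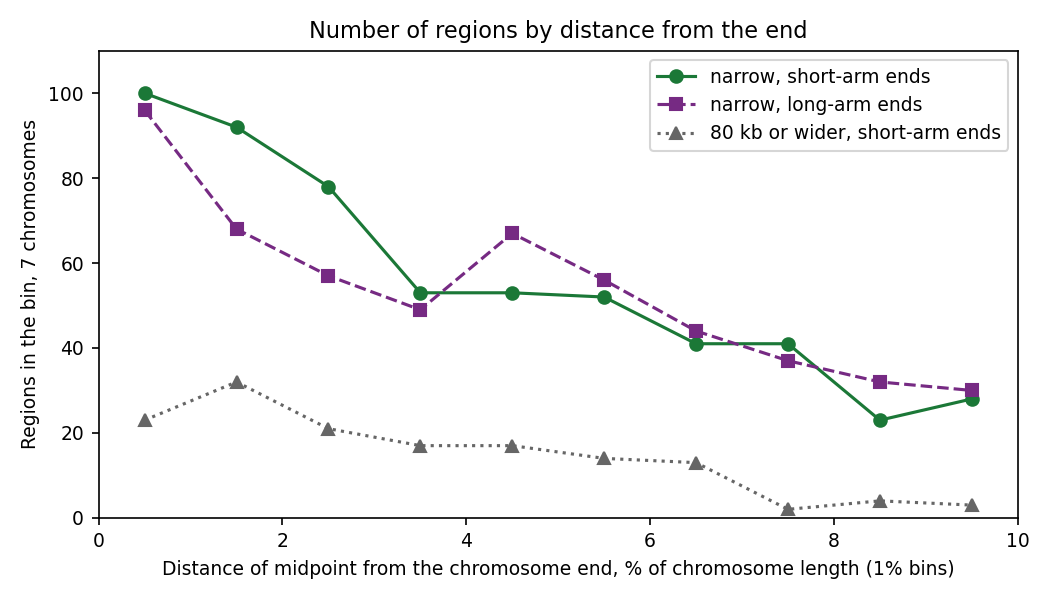
The number of regions with a peak in all 3 replicates is plotted against the distance of their midpoint from the chromosome end in bins of 1% of the chromosome length, summed over 7 chromosomes. Narrow regions of the short-arm ends fall from 100 in the first bin to 28 in the tenth, narrow regions of the long-arm ends fall from 96 to 30, and domains of 80 kb or more in the short-arm ends fall from 23 to 3.

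The mirror-image windows at the other chromosome ends, above 90% of the length, held 536 narrow regions (1.28 per Mb), and the stretch between both ends held 1694 (0.505 per Mb). The narrow regions covered 3.21% of the short-arm windows, 2.88% of the long-arm windows and 0.911% of the sequence between. These counts follow from the position rule and from the calls, and no test was made of them. In the short-arm windows, 54.1% of the 1037 merged regions under 80 kb had a peak in all 3 lists, against 45.1% of the 6188 such regions on the 7 chromosomes. The remaining narrow regions of the short-arm windows comprised 183 with a peak in 2 lists and 293 with a peak in 1.

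The 7 chromosomes differed in how many regions they held. Chromosome 7H had 100 regions, 6H had 89, 1H had 88, 2H had 86 and 4H had 84, while 5H had 63 and 3H had 51. Per Mb of window the order began with 1H at 1.70 and ended with 3H at 0.821. On 3H and 5H the long-arm ends held more narrow regions, with 98 and 81, and on the other 5 chromosomes they held fewer. On 4H the regions lay closest to the end, with a median midpoint at 2.07% of the chromosome and 41 of the 84 regions in the first 2%. The other medians lay between 3.05% on 3H and 3.99% on 7H.

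**Figure D2:**
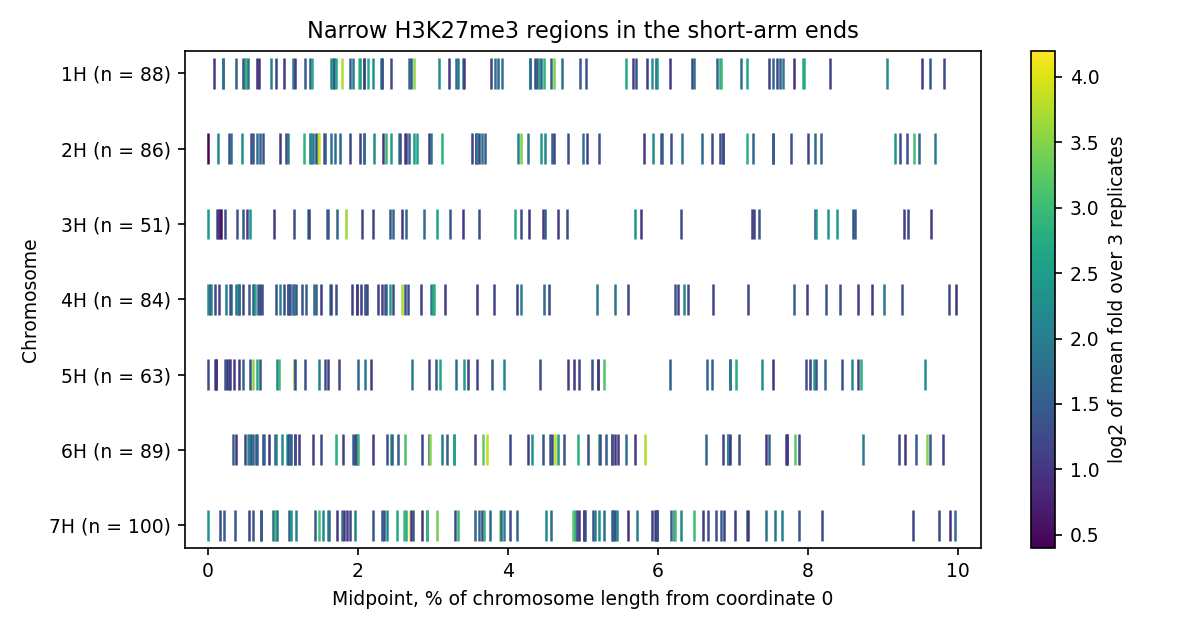
Each tick is 1 of the 561 narrow regions, placed by its midpoint in percent of the chromosome length from coordinate 0 and coloured by the log2 of its mean fold over 3 replicates. Ticks crowd in the first 2% of 4H, and 3H has the fewest with 51.

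Chromosome 4H also stood out in its neighbourhood of wide domains. It held 5 domains of 80 kb or more in the short-arm window, which covered 0.993% of that window, while its narrow regions covered 2.97%. On the other 6 chromosomes the wide domains numbered between 15 and 32 and covered more of the window than the narrow regions did. The wide domains of 1H covered 14.4% of its window and the narrow regions 4.46%, and the values of 3H were 4.44% and 1.71%. Differences between chromosomes were not tested.

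The fold by chromosome varied less than the number. The median fold of the 1H regions was 3.15, 2.96 and 3.41 in replicates 1, 2 and 3. For 2H it was 2.97, 2.89 and 3.04, and for 7H 2.90, 2.90 and 3.14. For 3H the values were 2.42, 2.40 and 2.68. In each of the 3 replicates, 1H had the highest median of the 7 chromosomes. Over replicates the mean was 3.17 ± 0.23 for 1H and 2.50 ± 0.16 for 3H (SD, n = 3 in both). Those of 4H, 5H and 6H, at 2.62 ± 0.12, 2.64 ± 0.15 and 2.62 ± 0.14 (SD, n = 3 each), lay within their spread of each other, as did 2H and 7H at 2.97 ± 0.073 and 2.98 ± 0.14 (SD, n = 3 each).

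Width set a wide range among the regions. The narrowest measured 2.33 kb, the median 15.1 kb and the widest 78.1 kb, with quartiles at 9.28 and 34.0 kb. Of the 561 regions, 17 were under 5 kb wide, 144 were between 5 and 10 kb, 160 between 10 and 20 kb, 126 between 20 and 40 kb and 114 between 40 and 80 kb. Their merged length added up to 13.5 Mb, of which replicate 1 covered 11.1 Mb, replicate 2 12.0 Mb and replicate 3 12.4 Mb. Replicate 1 had the shortest covered length in 322 regions, replicate 2 in 155 and replicate 3 in 84. The list of replicate 1 was also the shortest of the 3 lists as a whole.

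Over the 561 regions the median fold was 2.80, 2.67 and 2.89 in replicates 1, 2 and 3, on average 2.79 ± 0.11 (SD, n = 3). The middle of the distribution was narrow, with quartiles at 2.24 ± 0.076 and 4.13 ± 0.11 (SD, n = 3 each). At the top the fold reached 20.9, 18.1 and 17.2 in the 3 replicates, and at the bottom 1.30, 1.42 and 1.30. Within the full list of its own replicate, the median region stood at percentile 59.6, 69.1 and 71.7 of fold. The median −log10 q was 3.98, 6.81 and 8.31, so significance differed between the replicates by more than fold did. A fold of at least 3 in every replicate was reached by 189 regions (33.7%), against 25.0% of all 2791 narrow regions on the chromosomes. Another 256 regions were below 3 in every replicate, and 116 lay on both sides of it. A −log10 q of at least 5 in every replicate was reached by 226 regions (40.3%), against 31.5% of all narrow regions. Both shares rest on the values that also decided the calls and are given as a description.

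The replicates ranked the regions alike. Across the 561 regions, the fold in replicate 1 had a Spearman's rho of 0.850 with that in replicate 2 and of 0.844 with that in replicate 3, and replicates 2 and 3 gave 0.890. The points share their libraries and are not independent, so no p-value was attached. The same 3 pairs gave 0.787, 0.832 and 0.835 across the narrow regions of the long-arm ends, and 0.722, 0.745 and 0.758 between the ends, where the middle range of fold was narrower. The coefficient of variation of fold between the replicates was 10.2% in the median region, with quartiles at 6.80% and 14.8%. Replicate 1 had the highest fold in 232 regions, replicate 3 in 221 and replicate 2 in 108.

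**Figure D3:**
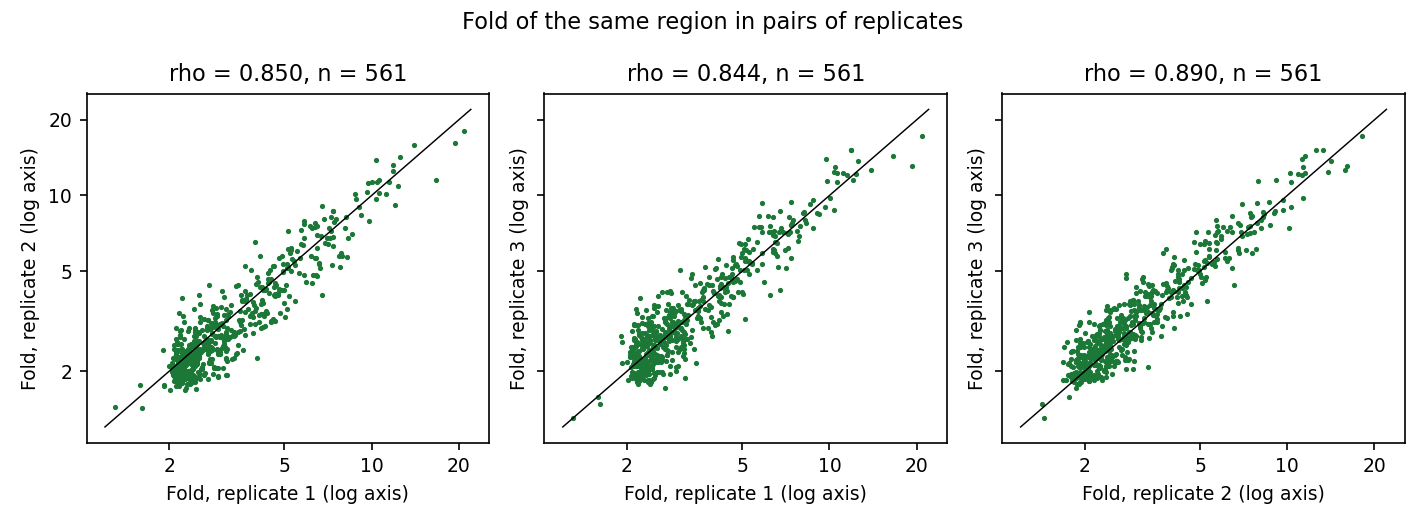
Each point is 1 of the 561 regions, with its fold in one replicate against its fold in another on log axes, and the line marks equal fold. The points follow the line in all 3 pairs, with rho of 0.850, 0.844 and 0.890.

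Fold rose with width. Spearman's rho of fold with merged width was 0.678, 0.698 and 0.675 in replicates 1, 2 and 3. Regions of 5 to 10 kb had a median fold of 2.35, 2.10 and 2.24, and regions of 20 to 40 kb had 3.95, 3.84 and 3.97. Regions of 40 to 80 kb had 5.57, 5.37 and 5.56. Of the 161 regions under 10 kb 0 had a fold of at least 3 in every replicate, and the highest mean fold among them was 3.34 ± 0.44 (SD, n = 3). This region (6H, 3384196 to 3392841) reached 2.84, 3.64 and 3.56. At the other end, 85 of the 114 regions of 40 to 80 kb (74.6%) had a fold of at least 3 in every replicate and 15 were below 3 in every replicate. At the long-arm ends such a fold was reached by 0 of 155 regions under 10 kb and 59 of 85 of 40 to 80 kb (69.4%). Between the ends it was 4 of 631 and 83 of 170 (48.8%). Spearman's rho of fold with width was 0.598, 0.678 and 0.630 at the long-arm ends and 0.524, 0.586 and 0.531 between the ends. Each replicate had a single peak in 520 of the 561 regions (92.7%), while 19 of the 114 regions of 40 to 80 kb had more than 1 peak in some replicate, and the part of this in the rise with width was not tested.

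Set against the narrow regions of the long-arm ends, the short-arm regions could not be told apart in median fold. The upper quartile of fold was 4.13 ± 0.11 at the short-arm ends and 3.76 ± 0.16 at the long-arm ends (SD, n = 3 each). In the same order, the lower quartile was 2.24 ± 0.076 and 2.26 ± 0.070 (SD, n = 3 each). A fold of at least 3 in every replicate was reached by 33.7% and 29.1%. Differences in quartiles and in this share were not tested. The median fold of the long-arm regions was 2.81, 2.64 and 2.85 in the 3 replicates, and the difference, short arm minus long arm, was 0.020 ± 0.032 (SD, n = 3). It was positive in 2 of 3 replicates (exact sign-flip permutation test over the replicates, two-sided p = 0.5, adjusted p = 0.667 over 4 comparisons). The length covered by a replicate's peaks in the median region was 11.0, 12.6 and 13.9 kb at the short-arm ends and 11.4, 12.4 and 12.7 kb at the long-arm ends. This difference of 0.31 ± 0.78 kb (SD, n = 3) was also positive in 2 of 3 replicates (exact permutation test, two-sided p = 0.75, adjusted p = 0.75). With 3 replicates this test cannot give a p below 0.25. The width limit of the rule also capped the covered length in both classes, so no conclusion on width rests on its p-value. Both differences depended on the settings, in both directions. In fold the difference was −0.023 without replicate 2, −0.017 without replicate 3 and −0.082 with a width limit of 40 kb, but 0.0080 without replicate 1, 0.077 with a limit of 160 kb and 0.27 ± 0.11 (SD, n = 3) with a minimum −log10 q of 5. In covered length it was −0.18, −0.40 and −0.64 kb under the first 3 changes and 0.21, 1.88 and 4.72 ± 1.1 kb (SD, n = 3) under the others, and 4.07 ± 0.81 kb (SD, n = 3) with a minimum fold of 3.

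Between the chromosome ends the narrow regions had a lower median fold in each replicate, though 3 replicates cannot bring this below the threshold of the test. The median there was 2.56, 2.46 and 2.60, and the short-arm regions exceeded it by 0.25 ± 0.042 (SD, n = 3), in 3 of 3 replicates (exact permutation test, two-sided p = 0.25, the smallest possible, adjusted p = 0.5). This excess was 0.084 with a width limit of 40 kb, 0.16 with a window of 20% of the length, 0.60 with a minimum −log10 q of 5 and 0.72 with a minimum fold of 3. The size of the gap depended on width. At 5 to 10 kb the median fold was 2.23 ± 0.12 at the short-arm ends and 2.23 ± 0.099 between the ends, and at 10 to 20 kb 2.74 ± 0.14 and 2.70 ± 0.14 (SD, n = 3 each). At 40 to 80 kb the short-arm regions had 5.57, 5.37 and 5.56, while the 170 regions between the ends had 3.32, 3.37 and 3.33. No replicate of one class reached the values of the other. The difference was 2.16 ± 0.14 (SD, n = 3; exact permutation test, two-sided p = 0.25, adjusted p = 0.5). When peaks below a fold of 3 were left out before merging it shrank to 0.89, and at a −log10 q of at least 5 to 0.98. Of the regions of 40 to 80 kb, 33.5% between the ends and 13.2% at the short-arm ends were below a fold of 3 in every replicate. More than 1 peak in some replicate was found in 54 of 170 such regions between the ends and in 19 of 114 at the short-arm ends, and its part in the difference was not tested. Both comparisons with regions between the ends were chosen after the values were seen, and fold comes from the calls that the rule used. No conclusion therefore rests on their p-values.

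**Figure D4:**
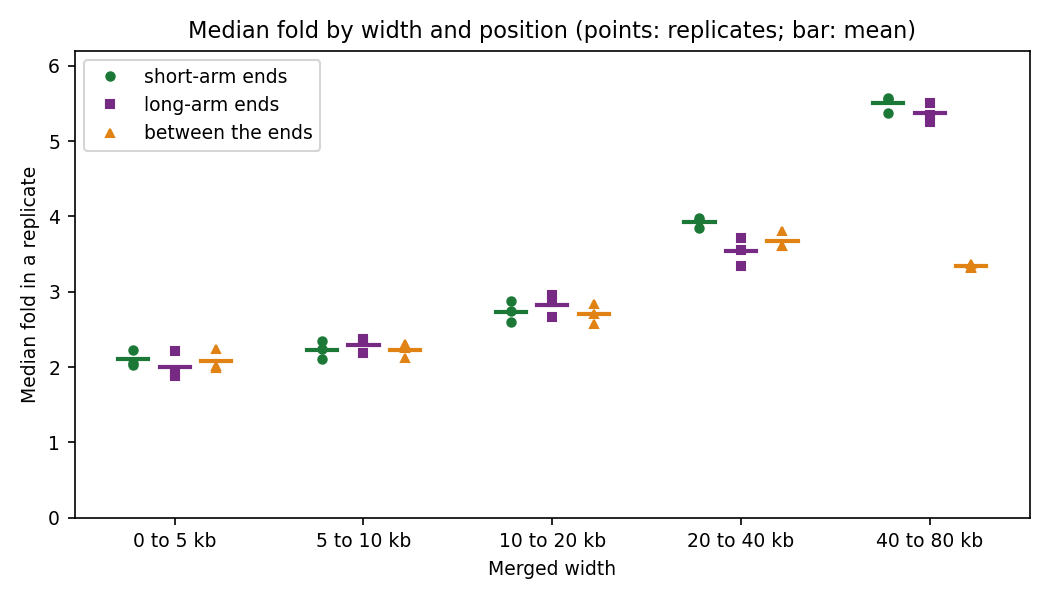
Median fold in each replicate (points) and the mean of the 3 replicates (bars) are shown by merged width for narrow regions of the short-arm ends, the long-arm ends and between the ends. The classes lie close together up to 20 kb, and at 40 to 80 kb the regions between the ends, near 3.3, lie below both ends, above 5.2 in every replicate.

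The strongest of these regions were also wide. A mean fold of at least 10 was reached by 17 of the 561 regions, the narrowest of them 53.4 kb wide. They were spread over all 7 chromosomes, with 5 on 6H, 3 each on 1H and 7H, 2 each on 2H and 5H, and 1 each on 3H and 4H. At the long-arm ends 13 of 536 narrow regions reached this fold, the narrowest 58.1 kb wide. Between the ends 12 of 1694 did, the narrowest 46.0 kb wide. Positions are given 1-based, so each start is 1 higher than in the peak lists. The genome build of the lists is not stated in the sources used here, so no genes are named at these positions.

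By mean rank of fold the first region was on 7H (16983329 to 17061115), where replicates 1, 2 and 3 had a fold of 20.9, 18.1 and 17.2. Its 3 peaks had almost the same borders, so that 99.5% of its 77.8 kb was covered in every replicate. The second, on 2H (9817764 to 9887979), reached 19.3, 16.1 and 13.1. It was 70.2 kb wide and lay 14.2 kb from its nearest neighbour. The third, on 1H (9196259 to 9272677), was more even, with 12.5, 14.2 and 13.8.

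The other two of the strongest 5 were both on 6H. From 25954676 to 26020330 the fold was 16.6, 11.5 and 14.3, and from 20832289 to 20898597 it was 13.9, 15.9 and 12.6. No replicate was the highest throughout. Replicate 1 led in the regions on 7H and 2H and in the first on 6H, and replicate 2 led in the other two. The means of the 2 regions on 6H, at 14.1 ± 2.6 and 14.2 ± 1.6 (SD, n = 3 each), lay within their spread of each other and of the 13.5 ± 0.87 on 1H (SD, n = 3).

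The 5 widest regions measured between 77.6 and 78.1 kb, yet their fold spanned a wide range. The widest, on 1H (14174030 to 14252083), reached a fold of 11.5, 11.3 and 12.0. A region of 77.7 kb on the same chromosome, from 38834752 to 38912452, had only 3.20, 3.32 and 3.08. The region on 6H (43916177 to 43993773) had 8.81, 9.66 and 9.57, and the one on 3H (11387568 to 11465127) had 10.4, 13.8 and 12.5. The remaining one is the region on 7H that also ranked first by fold.

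The width limit cut through a continuous range. The 3 members just inside it measured 77.7, 77.8 and 78.1 kb and are described above. Just outside lay a region of 80.2 kb on 6H (26223642 to 26303799), whose fold was 2.67, 1.98 and 2.10. The next, also of 80.2 kb, lay on 2H (970238 to 1050457) with 12.8, 9.76 and 11.1, and the third, of 80.4 kb, on 6H (26545963 to 26626323) with 2.97, 4.34 and 2.95. Just inside the position limit were 2 regions on 7H and 1 on 4H. The outer one on 7H (62588973 to 62594549) had 2.17, 1.84 and 1.82, the inner one (62953637 to 62968180) had 2.64, 3.22 and 4.15, and the one on 4H (60860366 to 60866820) had 2.18, 1.86 and 1.90. Just outside were 2 on 6H, with a mean fold of 3.78 ± 1.0 and 2.32 ± 0.23, and 1 on 2H with 2.26 ± 0.13 (SD, n = 3 each).

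At the very start of the chromosomes the regions took different forms. On 3H, 4H and 7H a region of moderate fold began within 1.3 kb of coordinate 0. That of 3H ran from 1276 to 57375, and its fold was 4.95, 4.98 and 6.38. The one on 4H ran from 700 to 46921 with 5.92, 4.52 and 4.54, and the one on 7H from 1160 to 69874 with 4.80, 5.63 and 5.25. The mean folds of these 3, at 5.44 ± 0.82, 5.00 ± 0.80 and 5.23 ± 0.42 (SD, n = 3 each), did not differ beyond their spread. Their peaks shared between 92.7% and 98.6% of the merged width.

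On 2H the first region also began near coordinate 0, from 546 to 10600, but its fold was the lowest of all 561 regions by mean rank, with 1.30, 1.44 and 1.30. Its −log10 q was 5.91, 17.9 and 12.7, above the median of the members in each replicate. Across the members, fold and −log10 q otherwise ran closely together, with a rho of 0.972, 0.976 and 0.980 in the 3 replicates. Of the 3 regions with a fold below 2 in every replicate, 2 had a −log10 q of at least 5 in every replicate. The second lay on 3H (1076659 to 1087399), its fold being 1.61, 1.42 and 1.49 and its −log10 q 5.91, 5.80 and 8.00. The third, at 1053904 to 1059502 of 3H, had a fold of 1.58, 1.76 and 1.57 and a −log10 q of 1.92, 7.98 and 5.75. These 3 were also the lowest by mean rank of fold, and a gap of 17.2 kb separated the pair on 3H.

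On the other chromosomes the first member lay further in or was weaker. On 5H it (21248 to 43174) had a fold of 2.19, 2.20 and 2.79, and only 31.6% of its width was covered in every replicate. On 1H the first member, from 459174 to 464129, had 2.16, 2.06 and 1.91 and lay 88.6 kb from a wide domain that came before it. On 6H it lay from 1858087 to 1868238 with 3.32, 2.79 and 2.73, only 7.77 kb beyond a domain of 1578 kb. On 1H and 6H, then, the outermost region found in all replicates was a wide domain and not a narrow region.

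The median gap to the nearest region found in all replicates, narrow or wide, was 162 kb, with quartiles at 41.0 and 357 kb, against 170 kb at the long-arm ends and 512 kb between the ends. The median gap was 82.3 kb in the first 1% of the chromosome and 555 kb in the last 1% of the window. It did not grow steadily, and the bin from 5% to 6% had the smallest median, 68.5 kb. A wide domain was the nearest neighbour of 113 regions (20.1%), against 16.6% at the long-arm ends and 9.80% between the ends. Wide domains made up 146 of the 707 regions found in all replicates in the short-arm windows. Within 100 kb of a wide domain lay 80 regions (14.3%). The same distance held 9.14% of the narrow regions at the long-arm ends and 2.54% of those between the ends. No test was made of these shares.

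When regions no more than 100 kb apart were linked, 355 of the 561 regions stood alone and 206 (36.7%) belonged to 108 runs of at least 2 regions. At the long-arm ends 37.3% of the narrow regions lay within 100 kb of another region found in all replicates, and between the ends 17.4%. In runs that included a wide domain there were 93 members. The run with the most members was on 7H (36101252 to 38570849) and held 7 narrow regions and 4 wide domains over 2470 kb. Its narrow regions had a median fold of 2.74, 2.18 and 2.32 and reached at most 4.23, 4.21 and 3.73. Only 1 run besides it had at least 5 members, on 6H (5927364 to 6392070), with 5 narrow regions and 1 wide domain over 465 kb. There the fold ranged from 2.11 to 6.41 in replicate 1, from 2.37 to 5.66 in replicate 2 and from 2.68 to 6.06 in replicate 3. The strongest member of this run, from 5927364 to 5954527, had 6.41, 5.66 and 6.06, and its neighbour from 6037960 to 6050017 had 2.65, 2.55 and 2.95. The distance for linking and these runs were chosen after the values were seen.

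Where each replicate had a single peak, the borders differed between replicates by a median of about 1 kb. Among the 520 regions with a single peak per replicate, the median distance between the borders of 2 replicates was 0.989 kb between replicates 1 and 2, 1.00 kb between replicates 1 and 3, and 0.779 kb between replicates 2 and 3. In 90% of the borders the distance was below 3.90, 4.07 and 3.15 kb. At 5 to 10 kb replicates 2 and 3 differed by a median of 0.732 kb, with 90% below 2.18 kb, and at 40 to 80 kb by a median of 0.939 kb, with 90% below 6.11 kb. The share of the merged width covered in every replicate rose with width, from a median of 60.2% at 5 to 10 kb to 89.0% at 40 to 80 kb, and was 73.1% over all regions. At the long-arm ends it was 76.0%.

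In 41 regions some replicate had more than 1 peak. The region with the largest coefficient of variation of fold, on 2H (45686894 to 45742967), had a single peak of 56.0 kb in replicate 1, 4 short peaks that added up to 7.64 kb in replicate 2 and a peak of 4.79 kb in replicate 3. Its fold was 3.17, 1.94 and 1.88, and 1.17% of its width was covered in every replicate. In 2 regions no base was covered in every replicate. That on 7H (45487266 to 45528291) had a fold of 2.10, 1.85 and 1.95, and that on 4H (12779183 to 12800061) had 2.17, 2.04 and 2.12.

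The next 4 regions by coefficient of variation had a single peak in each replicate. On 7H (15120902 to 15141915) the fold was 6.76, 4.04 and 4.19, so that replicate 1 stood apart. On 3H (17896704 to 17924001) it was 2.22, 3.90 and 3.90, and the peak of replicate 1 measured 7.59 kb against 27.3 and 26.5 kb in the others. On 7H (47788005 to 47802996) replicate 3 was the highest, with 3.36, 2.78 and 4.88. On 6H (37238449 to 37251487) the values were 4.01, 2.26 and 3.05. Replicate 1 thus stood apart on 3H, in the first of these regions on 7H and in the region on 2H above. In the second on 7H it was replicate 3.

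**Figure D5:**
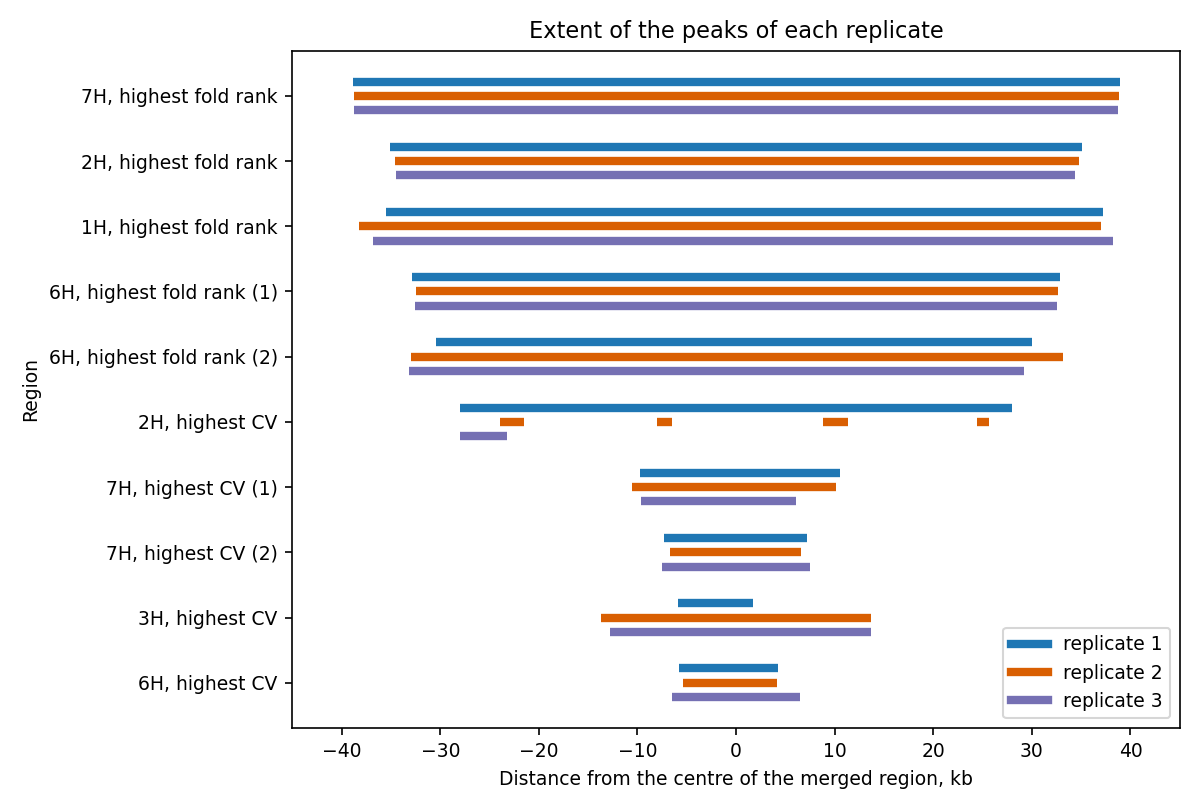
Bars show the extent of each replicate's peaks in kb from the centre of the merged region, for the 5 regions with the highest mean rank of fold and the 5 with the highest coefficient of variation (CV) of fold. The strong regions have nearly the same borders in all 3 replicates, whereas the first region of high CV, on 2H, is 1 peak in replicate 1, 4 short peaks in replicate 2 and 1 short peak in replicate 3.

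Compared with the wide domains of the same windows, the narrow regions were weaker and had a smaller part of their width covered in every replicate. The 146 wide domains had a median fold of 10.1, 9.89 and 10.0 and a median of 94.2% of their width covered in every replicate. They covered 8.21% of the windows. Each replicate had a single peak in 71.9% of the wide domains, against 92.7% of the narrow regions. Distances between borders were not measured for the wide domains. Fold and the covered share rose with width among the narrow regions too, and the limit between the classes is a width. These differences are therefore a description and were not tested.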

How the data were processed

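Genome-wide H3K27me3 was measured by ChIP-seq with 150-bp paired-end reads, per the labels' protocols. HISAT2 2.1.0, GATK, MACS2 and deepTools are named in the submitters' processing notes, without their roles. The genome build and the use of the input libraries are not given in the sources used here. The deposited lists, 1 per ChIP replicate, have 9 columns and no header. Column 7 was read as the deposited fold (a ratio) and columns 8 and 9 as the deposited −log10 p and −log10 q. The deposited score in column 5 was the −log10 q times 10 without its decimals for at least 99.9% of each list. The lowest −log10 q was 1.01, and a shallower library needs a higher fold for a call.

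Peaks were merged where they overlapped or touched, starts were read as 0-based, and the largest peak end stood for the chromosome length. Classes were compared by exact sign-flip permutation over the 3 replicates, with Benjamini-Hochberg adjustment over 4 comparisons. Named regions are the 5 highest and 3 lowest by mean rank of fold, the 5 widest, the first on each chromosome, the 5 with the highest coefficient of variation and those beside the limits, which made 26 members and 6 others. Members, lists and tests were chosen with earlier results of these data known. The tests against regions between the ends and the runs were chosen after the values were seen. So were the regions described as low in fold for their width or for their −log10 q, or as without a shared base. Python 3.11.15, numpy 2.4.6, pandas 2.3.3 and matplotlib 3.10.9 were used, and the selection of members was tested on simulated lists. The planned overlap with genes was not run, since no annotation of a stated build was at hand, and no sequence is printed for the same reason.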

Additional observations from a re-analysis of the deposited data

Results flagged for a closer look

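The sequence named Un, which has no chromosome position and was left out by the rule, held 87 narrow regions found in all 3 replicates. Their median fold was 2.92, 2.65 and 2.48 in replicates 1, 2 and 3, and their median width was 31.5 kb. This was noted because it is signal in sequence that no comparison used.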

How the results depend on the processing

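No paired analysis was possible because only the ChIP libraries gave a list, while the input libraries that share their replicate numbers gave none. Over 14 alternative settings, 9 results on the members as a set gave 111 values. Stricter peaks changed the set most. A minimum −log10 q of 5 left 226 members, with a median width of 33.8 kb, a median fold of 4.60, a mean rho between replicates of 0.893 and a share of 25.7% of the narrow regions. With a fold of at least 3 there were 189 members, with 36.6 kb, a fold of 5.12 and 27.04%. An equal number of peaks per replicate gave 17.8 kb and a fold of 2.92. A width limit of 40 kb gave 11.9 kb, a fold of 2.57, a rho of 0.786 and 18.5%, and a limit of 160 kb gave 19.9 kb, 2.94 and a rho of 0.891. A distal part of 5% of the length gave a share of 13.5%, and one of 20% gave 28.8% and a rho of 0.835. With −log10 p in place of fold the median was 7.94. Leaving out each replicate gave between 596 and 703 members, median widths of 12.9 to 13.8 kb, median folds of 2.54 to 2.74, mean rho of 0.835 to 0.877 and shares of 19.0% to 20.5%. The difference in median fold, short arm minus long arm, was −0.023 to 0.0080 over these, −0.082 at a width limit of 40 kb and −0.0092 with a distal part of 20%, but 0.27 with a minimum −log10 q of 5, 0.12 with a minimum fold of 3, 0.097 with a distal part of 5% and 0.077 at 160 kb. The difference in median covered length was −0.40 to 0.21 kb without each replicate and −0.64 kb at 40 kb, but 4.72 kb and 4.07 kb with the same minimum q and fold and 1.88 kb at 160 kb. The excess over regions between the ends stayed positive under every setting that gave a value, between 0.084 (40 kb) and 0.72 (minimum fold of 3) over all widths and between 0.89 (minimum fold of 3) and 2.24 (distal part of 5%) at 40 to 80 kb. The settings for these 2 results were chosen after the data were seen. At 40 to 80 kb no value exists under the limit of 40 kb. The p of these differences was never below 0.25. All 32 named regions kept their fold within 1 SD with a width-weighted mean. For a replicate with a single peak this mean is the same fold, so only regions with more than 1 peak in a replicate could move. Settings on gene overlap were not run. Apart from the construction of the stricter lists and limits, the cause was not tested. Depth is unknown, and its effect on the weakest members, those near a −log10 q of 1, was not tested.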
